A study of Mus musculus with 6 samples.

Results

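The genes described here are 10 core proteins of the small leucine-rich proteoglycan family, namely Dcn, Bgn, Aspn, Ecm2, Lum, Fmod, Prelp, Omd, Ogn and Podn. They were selected by symbol from the 22063 genes of the deposited table. The rule used no measured value, but the family was chosen with earlier results of these data known, and all 10 were found and carried enough counts to be tested. RNA-seq was performed on 6 libraries of primary cardiac fibroblasts from Tet3 f/f mice, in which the Tet3 alleles are flanked by loxP sites. In 3 libraries (GFP) the cells had received Ad-GFP, an adenovirus that makes a green fluorescent protein, and in 3 libraries (CRE) they had received Ad-Cre, an adenovirus that makes the recombinase that cuts out DNA between loxP sites. Both groups carried the floxed alleles, both had been infected with a virus and both had been treated with TGF-β. CRE and GFP therefore differ in the deletion of Tet3 and also in the presence of Cre itself. No library had Cre without floxed alleles, so effects of Cre and of Tet3 deletion on transcripts cannot be told apart here. Fibroblasts without TGF-β were not analysed here. The study describes its replicates as biological, but neither it nor the labels say whether the libraries of a group came from separate cultures or animals, so the p-values measure only the spread between these libraries, which may be technical. Values of a group are given in the order of replicates 1, 2 and 3.

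Small leucine-rich proteoglycans are secreted matrix proteins built around a curved stack of leucine-rich repeats. Most bind to collagen fibrils and set how thick the fibrils grow and how they are spaced, and several also bind growth factors of the TGF-β family or innate immune receptors. Many carry sulfated sugar chains, chondroitin or dermatan sulfate in class I and keratan sulfate in class II, and in the heart they are made mainly by fibroblasts. TET3 is a dioxygenase that oxidises 5-methylcytosine, the methylated base found mostly at CG dinucleotides (CpG).

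The libraries held between 17002126 and 20343590 counts. Tet3 itself had 1044, 965 and 1000 counts in GFP and 642, 649 and 637 in CRE, a log2 fold change of -0.72 ± 0.08 (SE; adjusted p = 5.36e-05, edgeR quasi-likelihood test), and this whole-gene count does not isolate the floxed exons. GFP replicate 1 stood apart from the other GFP libraries on the second principal component (10.3% of the variance), while the first (71.4%) separated the groups. Of 12862 genes tested across the table, 25.7% were lower in CRE, 25.5% were higher and 51.2% passed in either direction, at an adjusted p under 0.05. Of 10 markers of fibroblasts 9 were lower in CRE and 0 higher, and their summed level ranged from 30069 to 31587 CPM (counts scaled to library size by TMM) in GFP and from 18324 to 19647 in CRE. Most of that sum came from Col1a1 (a mean of 13729 CPM in GFP, log2 fold change -0.74) and Col1a2 (11568 CPM, -0.65), and the others ran from -1.80 (Tcf21) to -0.29 (Vim), with Thy1 at -0.10 not past the test. Of 10 endothelial markers 9 were lower (474 to 531 against 208 to 243 CPM), as were 5 of 8 markers of smooth muscle and pericytes (105 to 112 against 65.3 to 70.8 CPM) and 3 of 6 tested macrophage and leukocyte markers (58.5 to 66.4 against 34.7 to 38.0 CPM). Tendon and cartilage markers, cells in which several of these proteoglycans are abundant, were lower in 4 of 6 tested (81.0 to 82.7 against 43.7 to 47.8 CPM), and 1 of 2 tested Schwann cell markers was lower (5.04 to 6.88 against 3.91 to 4.24 CPM). Mesothelial markers went both ways, with 1 lower and 3 higher of 4 tested (7.77 to 8.74 against 7.87 to 11.1 CPM). Cardiomyocyte markers summed to between 0.846 and 1.20 CPM in GFP and between 2.01 and 2.90 CPM in CRE, with Myh6 at 0 counts in every library and 1 of the 9, Nppb, tested and higher. The part of these markers in the results on the proteoglycans was not tested, and in bulk RNA fewer cells of a type and less RNA per cell cannot be told apart.

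Of the 10 proteoglycan transcripts, 8 were lower in CRE, 0 were higher and 2 (Podn and Omd) did not pass the test, beside the background of 25.7% of genes lower. Their median log2 fold change was -0.69, against 0.01 over all tested genes and -0.69 over the 10 fibroblast markers. Lumican (Lum) fell most, to 36.4% of its GFP mean CPM, and biglycan (Bgn), the most abundant, fell least of those that passed, to 70.3%. Fmod was close to Bgn, at 68.9%, and their order was reversed without CRE replicate 3 (log2 fold change -0.49 for Fmod, -0.51 for Bgn). On the deposited FPKM scale the falls were smaller, to 40.8% for Lum and 78.7% for Bgn. In CPM the highest CRE library was below the lowest GFP library for 9 of the 10, Omd being the exception, and this was so for 29.6% of all tested genes. As a share of all counts in a library, the family took 1.06% ± 0.009 in GFP and 0.799% ± 0.017 in CRE (mean ± SD, n = 3).

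**Figure D1:**
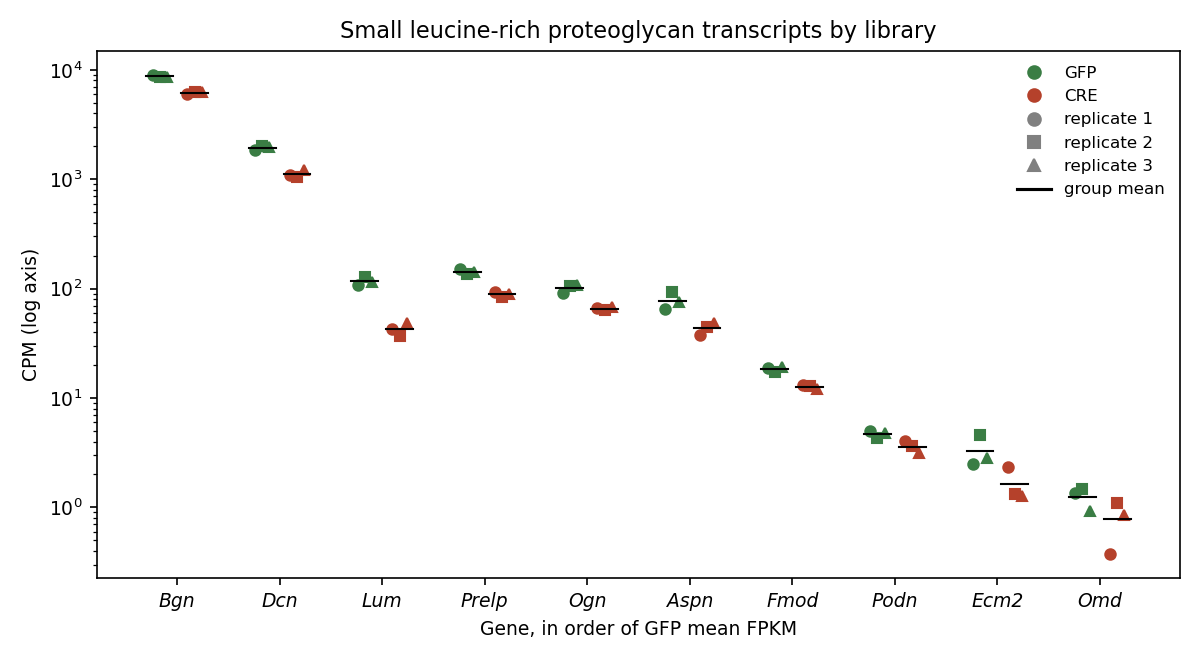
CPM of each of the 10 transcripts in every library, on a log axis, ordered by mean FPKM in GFP; green symbols are GFP, red symbols are CRE, the shape gives the replicate and the black bar is the group mean. The red points lie below the green ones for every gene but Omd, whose highest CRE library (1.11 CPM) is above its lowest GFP library (0.935 CPM).

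Per unit of transcript length, on the deposited FPKM scale, the levels differed greatly within the family. Bgn stood first in GFP at 3436 ± 78.9 FPKM (mean ± SD, n = 3) and decorin (Dcn) followed at 1046 ± 50.5 FPKM. Lum (45.2 ± 3.69), Prelp (37.5 ± 2.14), Ogn (37.5 ± 3.28) and Aspn (31.9 ± 5.87) came next, and among these the ranges of Prelp, Ogn and Aspn overlapped with each other. Fmod (5.59 ± 0.321), Podn (1.47 ± 0.097), Ecm2 (0.863 ± 0.295) and Omd (0.719 ± 0.147) were low, and the last pair overlapped. In CRE the order was Bgn (2702 ± 51.6), Dcn (673 ± 54.1), Ogn (27.1 ± 0.719), Prelp (25.9 ± 1.32), Aspn (19.9 ± 2.57), Lum (18.4 ± 2.44), Fmod (4.31 ± 0.213), Podn (1.31 ± 0.220), Omd (0.512 ± 0.263) and Ecm2 (0.486 ± 0.178). Lum thus moved from the third place to the sixth, below Ogn and Prelp without overlap but overlapping with Aspn. In both groups Bgn was among the 10 transcripts with the highest FPKM of the whole table, in places 7 to 10.

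The bases before the start site are shown for 4 of the genes, because TET3 acts on methylated CpG. Among the members that have a window, these hold the most (Podn) and the fewest (Omd) CpG. Also shown are those of the most abundant member (Bgn) and of the only class III member among the 10 (Ogn). Capitals mark each CpG, and the letters are those of RefSeq promoter windows on GRCm38.p6, read 5′ to 3′ on the strand of the gene. The windows of Bgn, Ogn and Omd end just before the GENCODE gene start, whereas that of Podn precedes a RefSeq start site that lies inside the longer GENCODE span of the gene.
Bgn, chrX:73483351-73483600, plus strand: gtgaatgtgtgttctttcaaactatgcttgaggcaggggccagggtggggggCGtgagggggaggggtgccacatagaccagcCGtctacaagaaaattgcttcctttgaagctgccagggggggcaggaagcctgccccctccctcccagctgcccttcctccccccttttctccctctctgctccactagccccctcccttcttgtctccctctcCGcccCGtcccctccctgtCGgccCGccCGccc
Ogn, chr13:49607765-49608014, plus strand: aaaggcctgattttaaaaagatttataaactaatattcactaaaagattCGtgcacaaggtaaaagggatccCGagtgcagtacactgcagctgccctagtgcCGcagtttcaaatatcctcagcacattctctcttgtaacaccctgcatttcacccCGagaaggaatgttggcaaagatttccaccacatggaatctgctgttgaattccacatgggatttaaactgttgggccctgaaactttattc
Omd, chr13:49582212-49582461, plus strand: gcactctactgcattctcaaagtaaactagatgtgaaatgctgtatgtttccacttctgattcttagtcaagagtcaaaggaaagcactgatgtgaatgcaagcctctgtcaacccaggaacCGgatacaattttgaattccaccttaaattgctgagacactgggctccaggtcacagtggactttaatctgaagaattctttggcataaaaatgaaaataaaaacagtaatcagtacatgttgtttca
Podn, chr4:108031955-108032204, minus strand: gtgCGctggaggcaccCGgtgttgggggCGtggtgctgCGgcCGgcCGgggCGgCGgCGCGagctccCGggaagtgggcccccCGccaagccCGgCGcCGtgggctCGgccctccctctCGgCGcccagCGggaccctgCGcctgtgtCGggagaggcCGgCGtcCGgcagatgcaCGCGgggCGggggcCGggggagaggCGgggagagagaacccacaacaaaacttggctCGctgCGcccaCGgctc

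These stretches hold 7 CpG for Bgn, 4 for Ogn, 1 for Omd and 32 for Podn. RefSeq windows of 300 bases (250 before the start and 50 after it) were matched for 8 of the 10 genes, all but Dcn and Lum, with a further window for Podn. Over the whole window, Bgn had 9 CpG, Prelp 7, Ecm2 and Ogn 4 each, Aspn and Fmod 3 each, Omd 1 and the Podn windows 41 and 7, beside a median of 7 over all 32851 windows and of 22 in the richest window of the tested genes that have one. Across the table, tested genes whose richest window held at most 9 CpG numbered 1424, and 33.8% of them were lower in CRE and 14.6% higher. Of the 8704 genes with more than 9 CpG, 23.8% were lower and 27.3% higher. Only 10128 of the 12862 tested genes had a window. The cut of 9 equals the count of Bgn, so every member with a window except Podn falls at or below it. Whether CpG content bears on the change was not tested. DNA methylation was not analysed here, so these windows say nothing of whether their CpG were methylated. The letters CATTCC, the core of the motif of TEAD factors, were found on either strand in 1 of the 9 windows of the family (Ogn, on the minus strand) and in 14.7% of all windows.

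Class I holds the main carriers of chondroitin and dermatan sulfate. Biglycan, which binds collagen and is also a ligand of toll-like receptors, was measured at 9036, 8670 and 8659 CPM in GFP and at 6079, 6245 and 6215 CPM in CRE. The groups were far apart and the libraries within each differed by little. The log2 fold change of Bgn was -0.51 ± 0.04 (SE; adjusted p = 2.77e-06, edgeR), and Bgn alone made up 0.830% of all counts in GFP and 0.653% in CRE. Decorin, which coats collagen fibrils and binds TGF-β, was at 1844, 2023 and 1968 CPM in GFP and at 1095, 1043 and 1219 CPM in CRE. No CRE library reached the GFP range, and the log2 fold change of Dcn was -0.80 ± 0.06 (adjusted p = 4.17e-06, edgeR). Ranked by counts within a library, Dcn stood between places 43 and 49 in GFP and between places 70 and 81 in CRE, while Bgn kept places 7 and 8 in both.

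Asporin (Aspn), a relative of decorin that lacks its sugar chain and carries a stretch of aspartic acid, was at 64.8, 93.2 and 75.8 CPM in GFP and at 37.6, 44.2 and 48.5 CPM in CRE. The GFP libraries were spread widely, with replicate 2 highest, but none came down to the CRE range. The log2 fold change of Aspn was -0.84 ± 0.13 (SE; adjusted p = 0.000311, edgeR). Ecm2, a little-studied matrix protein of this class, had only 40, 81 and 54 counts in GFP and 44, 24 and 24 counts in CRE. The raw counts overlapped, since CRE replicate 1 exceeded GFP replicate 1, while the scaled values (2.49, 4.57 and 2.81 CPM against 2.36, 1.33 and 1.27 CPM) were just separate. The log2 fold change of Ecm2 was -0.99 ± 0.31 (SE; adjusted p = 0.0224, edgeR). The call was lost without GFP replicate 2 (-0.68, adjusted p = 0.0956), without CRE replicate 2 (-0.85, adjusted p = 0.0778) or without CRE replicate 3 (-0.83, adjusted p = 0.0828), and on the FPKM scale the groups overlapped.

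**Figure D2:**
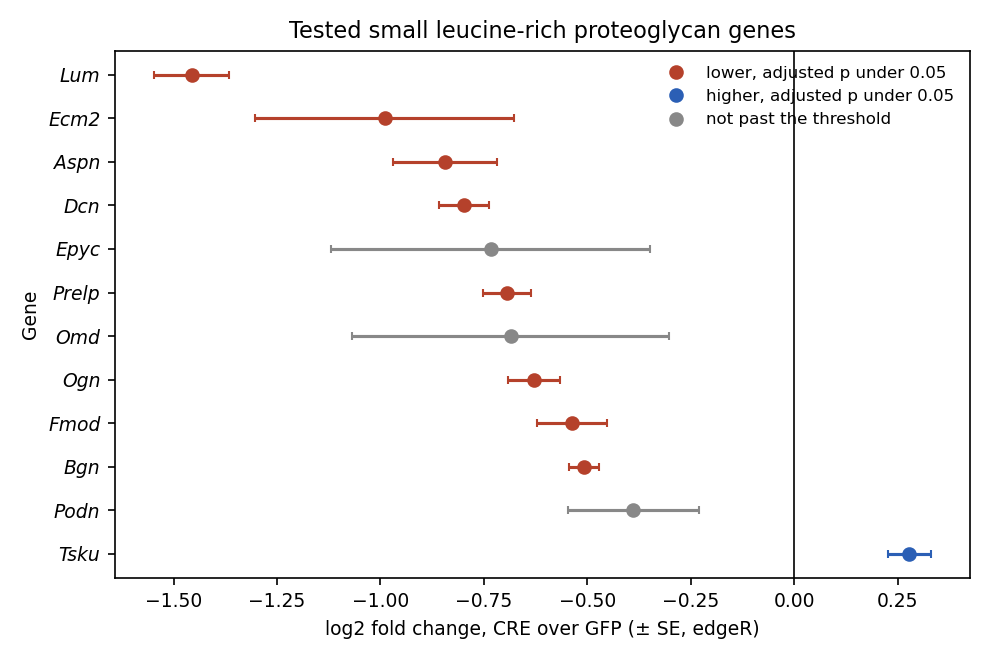
Log2 fold change, CRE over GFP, of each small leucine-rich proteoglycan gene that could be tested, with the SE of the edgeR fit as bars; red marks genes lower and blue genes higher at an adjusted p under 0.05, grey those past neither. Lum lies farthest to the left at -1.46, and Tsku, which is not one of the 10, is the only gene to the right of 0 (0.28).

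Class II includes the carriers of keratan sulfate. Lumican, which regulates fibril assembly in the cornea, skin and heart, was at 109, 127 and 115 CPM in GFP and at 42.4, 37.0 and 48.5 CPM in CRE. The groups were far apart, the lowest GFP library standing well above the highest CRE library. The log2 fold change of Lum, -1.46 ± 0.09 (SE, adjusted p = 1.26e-06, edgeR), was the largest in size among the 10 members. PRELP (Prelp), which anchors basement membranes to collagen, was at 152, 136 and 142 CPM in GFP and at 92.5, 83.1 and 90.3 CPM in CRE, with a wide gap between the groups and a log2 fold change of -0.69 ± 0.06 (adjusted p = 7.61e-06, edgeR). Of the exonic bases of Prelp 9.68% are shared with an antisense gene, Gm15851, which is not among the genes analysed here.

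Fibromodulin (Fmod), which competes with lumican for collagen, was at 18.9, 17.2 and 19.2 CPM in GFP and at 13.16, 13.01 and 11.99 CPM in CRE. The groups were separate, and the log2 fold change of Fmod was -0.54 ± 0.08 (SE; adjusted p = 0.00044, edgeR). Osteomodulin (Omd), best known from bone, had 22, 26 and 18 counts in GFP and 7, 20 and 16 counts in CRE. The groups overlapped, and the log2 fold change of -0.69 ± 0.38 did not pass (adjusted p = 0.161, edgeR). It was -0.35 without CRE replicate 1 and -1.02 without CRE replicate 2. At so few counts a change of this size was not detectable for Omd, which does not show that it was absent.

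In class III, osteoglycin (Ogn), also called mimecan, was at 91.6, 106 and 107 CPM in GFP and at 66.2, 63.7 and 67.5 CPM in CRE. The CRE libraries lay close together and all below GFP, with a log2 fold change of -0.63 ± 0.06 (SE; adjusted p = 2.54e-05, edgeR). In class V, podocan (Podn), which is expressed in vascular smooth muscle and kidney, had 81, 76 and 93 counts in GFP and 75, 66 and 59 counts in CRE. In CPM the groups were narrowly separate (5.04, 4.28 and 4.83 against 4.03, 3.66 and 3.12), on the FPKM scale they overlapped, and the log2 fold change of -0.39 ± 0.16 did not pass (adjusted p = 0.0621, edgeR).

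Single-gene exact permutation tests of mean log2 CPM, two-sided, gave p = 0.1 for 9 of the genes, the smallest value that 3 against 3 libraries allow, and 0.2 for Omd. Within GFP, replicate 1 had the lowest CPM of Dcn, Aspn, Ecm2, Lum and Ogn and the highest of Bgn, Prelp and Podn. Without that library the log2 fold change was -0.84 for Dcn, -0.96 for Aspn, -1.51 for Lum, -0.70 for Ogn, -0.49 for Bgn and -0.65 for Prelp, so that the changes of Bgn and Dcn were farther apart without it.

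Differences in the size of the change between members were examined by ratios of their counts within a library, which do not depend on how libraries are scaled. For every count of Bgn there were 0.204, 0.233 and 0.227 counts of Dcn in GFP and 0.180, 0.167 and 0.196 in CRE. The mean log2 ratio of Dcn to Bgn differed by -0.29 (CRE minus GFP), and the groups did not overlap. Counts of Lum for every count of Fmod numbered 5.76, 7.39 and 5.98 in GFP and 3.22, 2.85 and 4.04 in CRE, a difference of -0.93 in log2 ratio, again without overlap. Lum also fell against its neighbour Dcn, from 0.0590, 0.0630 and 0.0584 counts per count of Dcn to 0.0388, 0.0355 and 0.0398, a difference of -0.66 without overlap. The ratio of Ogn to Aspn, at 1.41, 1.14 and 1.41 in GFP and 1.76, 1.44 and 1.39 in CRE, differed by 0.21 and overlapped. By two-sided exact permutation tests the first 3 ratios had p = 0.1, the smallest that 3 libraries a group allow, and the last p = 0.3, which became 0.133 and 0.3 after Benjamini-Hochberg adjustment over the 4 ratios, so that none of them passed. Within the summed FPKM of the family, Bgn went from 74.0% ± 1.38 in GFP to 77.8% ± 1.33 in CRE, Dcn from 22.5% ± 1.16 to 19.4% ± 1.23 and Lum from 0.974% ± 0.080 to 0.530% ± 0.063 (mean ± SD, n = 3).

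**Figure D3:**
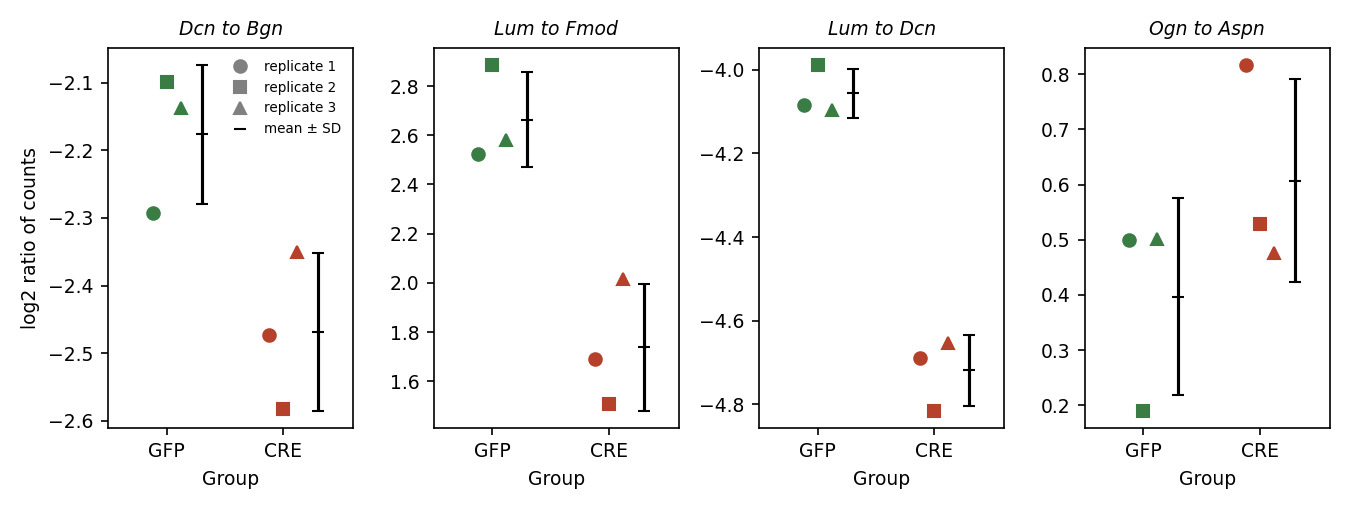
Log2 ratio of the counts of 1 member to those of another in each library, with the group mean ± SD in black; green is GFP and red is CRE, the shape gives the replicate, and each panel has its own axis. The CRE libraries lie below all GFP libraries for Dcn to Bgn, Lum to Fmod and Lum to Dcn, and overlap with them for Ogn to Aspn.

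The genes lie in clusters in the mouse genome (GRCm38, GENCODE M21). Dcn (chr10:97479609-97518143) and Lum (chr10:97565128-97572703) are neighbours on the plus strand, 47.0 kb apart, followed by the family members Kera, with 0 counts in every library, and Epyc. Ecm2 (chr13:49504810-49532789), Aspn (chr13:49544443-49567565), Omd (chr13:49582462-49592822) and Ogn (chr13:49608046-49624501) stand in a row on the plus strand with gaps of 11.7, 14.9 and 15.2 kb. Their log2 fold changes ran from -0.99 to -0.63, and the next gene beyond Ogn, Nol8, was higher in CRE (0.26 ± 0.06, adjusted p = 0.00495, edgeR). All 4 lie inside Cenpp, a kinetochore gene on the opposite strand, which had between 7 and 23 counts per library and a log2 fold change of 0.34 that did not pass (adjusted p = 0.546, edgeR). Only Aspn shares exonic bases with Cenpp, 7 in all.

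Prelp (chr1:133910304-133921414, minus strand) and Fmod (chr1:134037254-134048277, plus strand) lie 115.8 kb apart. Btg2, an antiproliferative gene 26.9 kb beyond Fmod, moved the other way, with 392, 397 and 506 counts in GFP and 1511, 1404 and 1261 in CRE (1.62 ± 0.09, adjusted p = 5.08e-07, edgeR). Neither Bgn (chrX:73483602-73495933, plus strand) nor Podn (chr4:108014791-108096445, minus strand) has another member beside it. Haus7, the gene before Bgn, was lower too (-0.35 ± 0.06, adjusted p = 0.000804, edgeR). Scp2, which overlaps Podn on the same strand, had a log2 fold change of 0.01 (adjusted p = 0.915, edgeR), and Echdc2, next to Podn, one of -0.10 (adjusted p = 0.538). The nearest protein-coding gene before Dcn, Btg1, is 856.8 kb away and had a log2 fold change of -0.25 ± 0.05 (adjusted p = 0.00154, edgeR), a call lost with library size alone or FPKM.

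**Figure D4:**
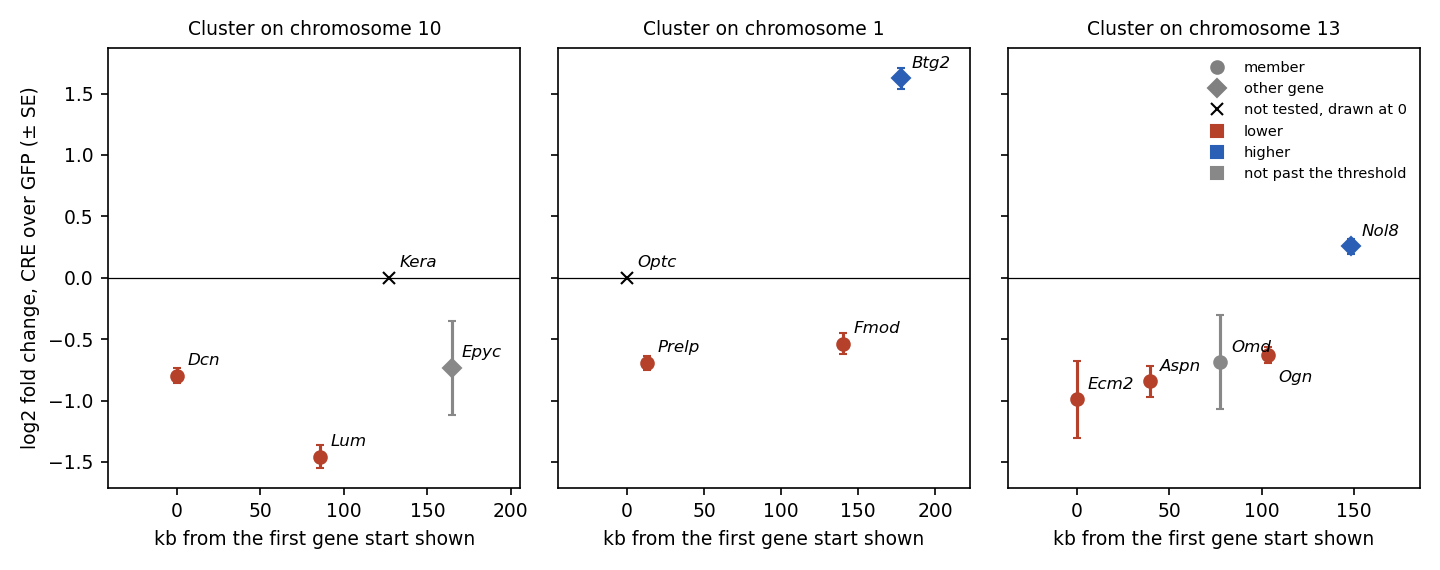
Log2 fold change, CRE over GFP, with SE, of the genes in the clusters on chromosomes 10, 1 and 13 against their distance in kb from the first gene start shown; circles are members, diamonds other genes, crosses genes not tested (drawn at 0), and colours give the call. The members lie below 0 in each cluster, while Btg2 (1.62) and Nol8 (0.26) at the far ends lie above it.

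Among the other genes of the family in the table, 2 passed the filter of the main fit. Tsukushi (Tsku), a class IV member that modulates BMP and Wnt signals, had 2186, 2310 and 2415 counts in GFP and 2817, 2822 and 3166 in CRE. It was the only one of the 12 tested genes of the family to be higher (0.28 ± 0.05, adjusted p = 0.00135, edgeR). Epiphycan (Epyc), a class III member of cartilage, had 12, 23 and 16 counts in GFP and 12, 6 and 14 in CRE, and its log2 fold change of -0.73 ± 0.39 did not pass (adjusted p = 0.138, edgeR). It ran from -0.96 to -0.46 over the libraries left out in turn and reached -0.17 on log2(FPKM + 1).

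The enzymes that build the sugar chains were counted in the same way. The chains of class I begin with a linker of a few sugars, and of its 7 genes 5 were higher in CRE and 0 lower, with a median log2 fold change of 0.38. They included xylosyltransferase Xylt1 (0.38 ± 0.07), which starts the chain, the galactosyltransferase B4galt7 (0.46 ± 0.06), the xylose kinase Fam20b (0.38 ± 0.04) and the phosphatase Pxylp1 (0.47 ± 0.07). Of 14 tested genes for chondroitin and dermatan sulfate, 5 were lower and 4 higher, with a median of -0.06. Csgalnact1, which starts the chondroitin chain, fell from 1932, 2969 and 2958 counts to 1463, 1558 and 1691 (-0.80 ± 0.10), and the sulfotransferase Chst11 (-0.33 ± 0.05), Chpf2 (-0.18 ± 0.05) and the epimerase Dsel (-0.20 ± 0.05) were lower too, although Chpf2 and Dsel no longer passed when library size alone or FPKM was used. The sulfotransferases Ust (0.86 ± 0.07), Chst15 (0.57 ± 0.09) and Chst12 (0.27 ± 0.06) and the chain-extending enzyme Chsy3 (0.68 ± 0.09) were higher.

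Of 9 tested genes for keratan sulfate, the chain of class II, 5 were higher and 1 lower, with a median of 0.19. Chst2, a GlcNAc sulfotransferase, had 307, 294 and 288 counts in GFP and 745, 773 and 750 in CRE (1.28 ± 0.09, adjusted p = 1.89e-06, edgeR). The galactose sulfotransferase Chst1 (0.84 ± 0.14), B4galt4 (0.90 ± 0.07) and Fut8 (0.45 ± 0.07) were also higher, and the galactosyltransferase B4galt1 was lower (-0.54 ± 0.04). Genes that supply sulfate and sugar donors, listed with the enzymes that sulfate tyrosines in some of the core proteins, were split, 4 lower and 6 higher of 14, with a median of 0.20. The tyrosine sulfotransferases themselves went opposite ways, Tpst1 at -0.52 ± 0.06 and Tpst2 at 0.50 ± 0.05. Ugp2, which makes UDP-glucose, was lower (-0.47 ± 0.07), as was the sulfate-activating Papss2 (-0.22 ± 0.07, and -0.27 to -0.14 over the libraries left out in turn, with the call lost without GFP replicate 1, CRE replicate 2 or CRE replicate 3, and -0.06 to -0.05 and not past the test with library size alone or FPKM), while the transporters Slc35b2 (0.40 ± 0.05) and Slc35d1 (0.39 ± 0.08) and the phosphatase Bpnt1 (0.45 ± 0.06) were higher. Each gene named as higher or lower in these lists had an adjusted p under 0.05 in the edgeR test, and the background is the 25.7% lower and 25.5% higher given above.

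**Figure D5:**
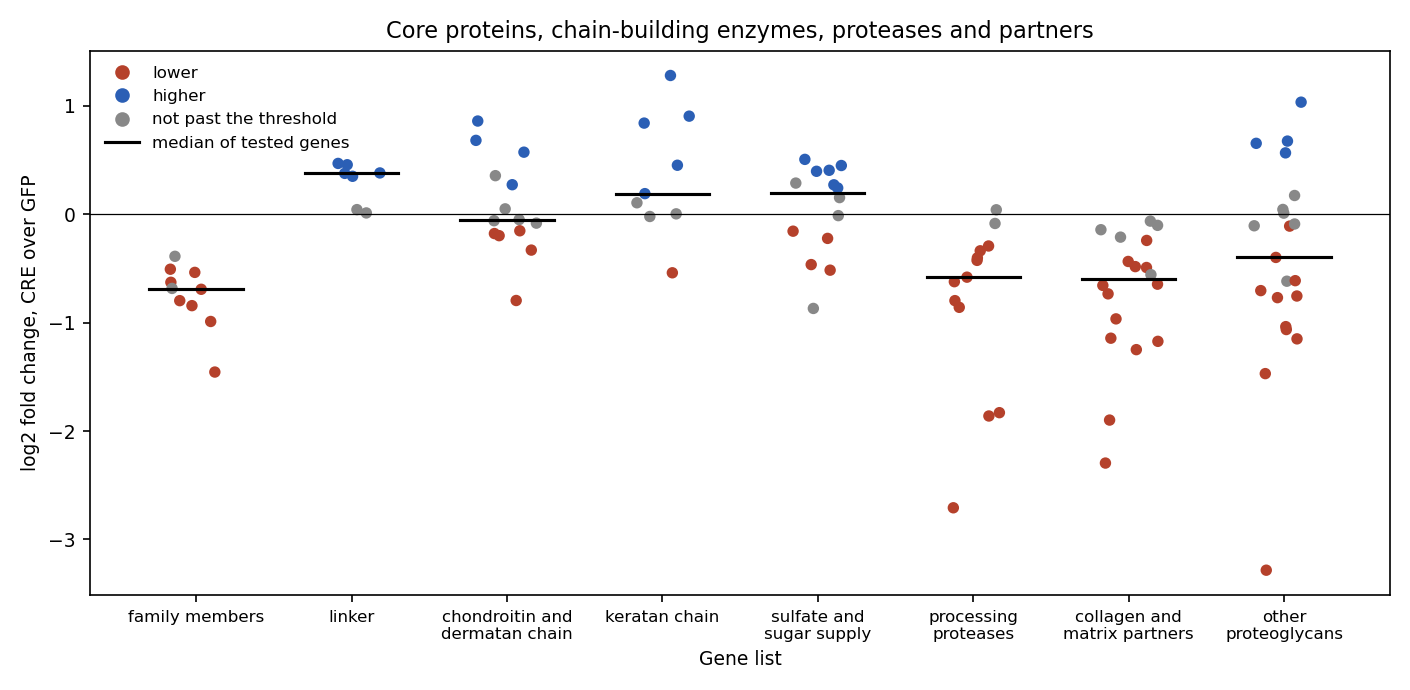
Log2 fold change, CRE over GFP, of each tested gene in the family, in the lists of chain-building enzymes and suppliers, and in the lists of proteases, matrix partners and other proteoglycans; 1 point is 1 gene, red is lower, blue higher, grey past neither threshold, and the bar is the median. The family (median -0.69), the proteases (-0.58) and the matrix partners (-0.60) lie below 0, and the linker genes (0.38) above it.

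Proteases that cut these core proteins or their partners, listed with the procollagen proteinase enhancers Pcolce and Pcolce2, which are not proteases themselves, were mostly lower, 11 of 13 tested genes and 0 higher, beside 25.7% lower and 25.5% higher of all tested genes, with a median of -0.58. Mmp13, a collagenase that also cleaves fibromodulin, fell from 227, 221 and 291 counts to 30, 44 and 44 (-2.71 ± 0.16, adjusted p = 7.95e-07, edgeR, and -1.69 on log2(FPKM + 1)). The aggrecanases Adamts5 (-1.83 ± 0.09) and Adamts1 (-1.86 ± 0.11) and the procollagen C-proteinase relative Tll1 (-0.86 ± 0.11) were lower as well. Bmp1, which removes the propeptide of biglycan, had a log2 fold change of 0.04 and did not pass, and it is named here after its value was seen. Of the 18 tested collagens and other matrix partners of the family, 13 were lower and 0 higher, beside the same 25.7% and 25.5%, with a median of -0.60. Of these, Col1a1 and Col1a2 are also among the fibroblast markers. Elastin (Eln) went from 7665, 5723 and 7635 counts to 1724, 1241 and 1555 (-2.30 ± 0.14, adjusted p = 1.06e-06, edgeR). Col14a1 (-1.90 ± 0.09), a fibril-associated collagen, and the fibril-forming Col3a1 (-1.25 ± 0.08) and Col5a2 (-1.17 ± 0.06) fell by more than either Bgn or Dcn on the log2 scale, although that difference was not tested.

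Of 20 tested growth factors and receptors that these proteoglycans bind, 12 were lower and 1 higher, beside 25.7% lower and 25.5% higher of all tested genes, with a median of -0.25. These counts were 7, 6 and 7 lower and 5, 3 and 3 higher with library size alone, log2(FPKM + 1) and log2(FPKM + 0.1), and 0 were higher by DESeq2 or limma-voom. Bmp2 had 73, 65 and 79 counts in GFP and 35, 25 and 30 in CRE (-1.34 ± 0.20, and -0.50 on log2(FPKM + 1)), and Bmp4 was at -0.53 ± 0.07. Of the innate immune receptors of soluble biglycan, Tlr2 (-0.53 ± 0.09) and Cd14 (-1.07 ± 0.10) were lower, and Cd14 is also in the macrophage marker list. Tlr4, with 880, 899 and 997 counts in GFP and 980, 788 and 977 in CRE, did not pass (-0.09 ± 0.07, adjusted p = 0.346, edgeR), and it is named here after its value was seen. The only gene higher was Met, a receptor tyrosine kinase that binds decorin, at 0.26 ± 0.10 (adjusted p = 0.0434, edgeR), a call that was lost by DESeq2, by limma-voom and without any of the GFP libraries or CRE replicate 2 (0.15 to 0.32 over the libraries left out in turn).

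Of the 21 tested proteoglycans of other families, 11 were lower and 4 higher, beside 25.7% lower and 25.5% higher of all tested genes, with a median of -0.40. Aggrecan (Acan) had 169, 162 and 182 counts in GFP and 22, 15 and 18 in CRE (-3.28 ± 0.17, adjusted p = 4.96e-07, edgeR, and -1.06 on log2(FPKM + 1)), and versican (Vcan), which like aggrecan binds hyaluronan, was at -1.15 ± 0.09. Acan is also in the tendon and cartilage marker list. Gpc3 (-1.47 ± 0.21, and -0.83 on log2(FPKM + 1)), a membrane-anchored glypican, and lubricin, Prg4 (-1.06 ± 0.11), were lower. The higher genes were Cspg4 (1.03 ± 0.23), a pericyte surface proteoglycan, the basement membrane proteoglycan agrin, Agrn (0.65 ± 0.06), and the glypicans Gpc1 (0.56 ± 0.08) and Gpc2 (0.67 ± 0.22). The call of Gpc2 was lost without GFP replicate 3, CRE replicate 1 or CRE replicate 3, with values from 0.46 to 0.82 over the libraries left out in turn.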

How the data were processed

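RNA-seq libraries were grouped by their titles. Trimmomatic was used by the authors for trimming, HISAT2 for alignment to GRCm38 and HTSeq-count for counting, as their methods state. The deposited counts are raw reads per gene and library. The deposited FPKM values, made by the authors with Cufflinks, were used for levels between genes and as an alternative. Group means of FPKM, a log2 fold change, a p-value and a false discovery rate from the authors' own comparison stand in the same table and were not used. Tool versions and the strand setting of the counting are not given in the sources used here, so overlapping and antisense genes are uncertain, and the labels and the methods name different kits.

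Counts were analysed with edgeR 4.0.16 in R 4.3.3. The filter was filterByExpr (a minimum of 10 counts and a total of at least 15). Libraries were scaled by TMM (factors 0.944 to 0.947 in GFP, 1.05 to 1.06 in CRE) and CRE was set against GFP in a quasi-likelihood F test (two-sided), with Benjamini-Hochberg adjustment over 12862 genes. The SE was derived from the log2 fold change and the root of F. The test was checked on simulated counts with few changed genes, as many raised as lowered. That check does not cover the choice of scaling, on which the calls across the table depend. With 0 counts a level of up to 3 counts remains possible, 0.156 to 0.187 CPM by library, for counting error only. Between 0% and 9.0% of the 31-base words of a member also occur in another gene. Genes named besides the members are, in each list, up to 4 in each direction with the largest change among those that passed with separate groups, the rest of the family, and the nearest protein-coding genes. The members and lists were chosen with earlier results of these data known. Alternatives were other scalings (RLE, upper quartile, library size alone), other filters, DESeq2 1.42.0, limma-voom and limma 3.58.1 on log2(FPKM + 1) and log2(FPKM + 0.1), a block for the replicate number, and leaving out each library. Permutation tests used SciPy 1.17.1 and figures matplotlib 3.10.9.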

Additional observations from a re-analysis of the deposited data

How the results depend on the processing

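Lum, Dcn, Bgn, Aspn, Prelp, Ogn and Fmod kept their direction and passed in every fit in which each was run, and 0 of the 10 proteoglycans was higher in any. The count lower was 7 or 8, the lower number coming from Ecm2, which did not pass on log2(FPKM + 1) (-0.32, adjusted p = 0.0685, limma) or log2(FPKM + 0.1) (-0.72, adjusted p = 0.0633, limma). Omd had too few counts to enter the fit that asks for 10 counts in every library. The median over all tested genes moved up by 0.16 (log2) when library size alone was used and by 0.15 or 0.16 with FPKM. The added 1 on log2(FPKM + 1) also shrinks the log2 fold change of low genes, to -0.31 for Fmod, -0.20 for Omd and -0.10 for Podn. Calls across the table then became 2083 lower and 5529 higher (72.6% of calls higher, against 49.8%), 1916 and 4976 on log2(FPKM + 1), and 1909 and 4989 on log2(FPKM + 0.1). Under those 3 settings the lists gave 2 lower each for chondroitin and for sulfate supply, 1 higher protease, 7, 6 and 7 lower and 5, 3 and 3 higher signalling partners, the last being 0 by DESeq2 and limma-voom. With no filter, 1 of the other family genes was lower (Podnl1) and 2 higher (Tsku and Nyx). The family took 1.12% (GFP) and 0.755% (CRE) of TMM-scaled counts. Echdc2 changed sign (0.06 by library size alone, 0.03 on both FPKM scales), and Scp2 became higher there (0.17 to 0.18).

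Leaving out each library in turn gave 2874 to 3303 genes lower and 2735 to 3214 higher, 7 to 8 members lower, 0 to 1 of the other family genes lower, 2 to 4 sulfate supply genes lower (2 without GFP replicate 1 or CRE replicate 2) and 0 to 1 signalling partners higher (0 without GFP replicate 2 or 3 or CRE replicate 2). Cenpp then ranged from -0.03 to 0.71 and Scp2 from -0.01 to 0.02. Replicate numbers did not pair the libraries (same-number correlations of 0.05, 0.18 and -0.02, and not every library correlated best with its own number), and with the replicate block 8 members were lower and 0 higher, and 3373 genes of the table were lower and 3260 higher. The cause of these changes was not tested. Depth limits Omd, Ecm2 and Podn, with 7 to 93 counts per library.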

Other observations

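The remaining small leucine-rich proteoglycan genes in the table had too few counts to pass the filter of the main fit, and their counts are given as they are. In the fit with no filter, Podnl1 was called lower and Nyx higher. Podnl1, a relative of podocan, had 14, 9 and 13 counts in GFP and 4, 2 and 4 in CRE, and all CRE libraries were below GFP. Opticin (Optc), the neighbour of Prelp and best known from the eye, had 7, 4 and 9 counts in GFP and 1, 3 and 3 in CRE. Nyctalopin (Nyx), a retinal member, had 0, 1 and 1 counts in GFP and 10, 2 and 4 in CRE. Chadl had 3, 3 and 5 against 12, 1 and 7, and chondroadherin (Chad) 0, 1 and 3 against 1, 5 and 1, and in both the groups overlapped. Keratocan (Kera), which follows Lum on chromosome 10, was at 0 in all 6 libraries, which allows up to 0.156 to 0.187 CPM.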
